A study of Mus musculus with 111 samples.

Results

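The late end of the response to a single dose of bleomycin was examined in whole mouse lungs at day 35. The arrays were chosen by their labels as the 8 bleomycin mice and the 8 saline mice of that day, 16 arrays of a series with 56 bleomycin and 55 saline mice, with 1 mouse on each Affymetrix mouse array. The bleomycin mice were male C57BL6/J mice, bought at 7 to 9 weeks of age, that received 2 U/kg of bleomycin into the trachea once. The saline mice were of the same sex, strain and age and received saline by the same route. The other groups of the series were killed on days 1, 2, 7, 14, 21 and 28, with 8 mice per group except the saline mice of day 14, of which 7 were analysed. The left and right lungs of each mouse were homogenized together, and mice used for the arrays were not those used for lavage, histology or lung function.

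Bleomycin is an antibiotic that cleaves DNA, and in the mouse lung it first injures the epithelium, then draws in inflammatory cells, then leads fibroblasts to lay down collagen. The scar of a single dose is known to resolve slowly and in part in this strain. Macrophages that take up debris and matrix, epithelial cells halted between the type II and type I states, and clusters of antibody-producing cells are known features of the late lung.

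Values are log2 levels after RMA normalization, so that 1 unit is a 2-fold step, and they compare mice for 1 gene but not 1 gene with another. Each of 15707 genes was represented by its most variable probeset and tested with limma over all arrays, with p values adjusted over all genes. The words higher and lower are used below for genes with an adjusted p under 0.05, and differential expression also requires a change over 2-fold. At day 35 the adjusted p was passed by 4617 genes (29.4%), of which 2658 were higher in bleomycin mice (16.9%) and 1959 lower (12.5%), with a median log2 fold change over all genes of 0.018. Differential expression was found for 102 higher genes (0.649%) and 61 lower genes (0.388%), or 163 in all (1.04%). In 621 genes every bleomycin mouse lay above every saline mouse (3.95%), and in 276 every bleomycin mouse lay below (1.76%). Of the 163, 70 had groups that did not overlap and 128 had all 8 bleomycin mice on 1 side of the saline mean.

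The bleomycin mice were less alike than the saline mice, with a median standard deviation over genes of 0.152 against 0.129, and the larger of the pair was that of the bleomycin mice in 10224 of the 15707 genes. Bleomycin mouse 3 stood apart, and its median correlation with its own group was 0.9785, against 0.9863 to 0.9913 for the other bleomycin mice and 0.9895 to 0.9943 for saline mice. Over the 163 genes it had moved by 2.36 on average in the direction of the call, whereas the other bleomycin mice had moved by 0.957 to 1.51. The 163 genes were called with mouse 3 among the arrays, so that its larger shift is in part given by that choice. Without this mouse 109 of the 163 remained differentially expressed in the same direction, the counts were 79 higher and 31 lower, and 3913 genes passed the adjusted p. Sftpc, the surfactant protein of alveolar type II cells, was at 14.42 to 14.48 in bleomycin mice and at 14.41 to 14.47 in saline mice, and Ager, the receptor that marks alveolar type I cells, at 13.99 to 14.14 and 13.94 to 14.08 in the same groups, so that all lungs held the markers of alveolar tissue. In a homogenate fewer cells of a type and less RNA per cell cannot be told apart. No batch, plate or scan record was among the sources used here.

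**Figure D1:**
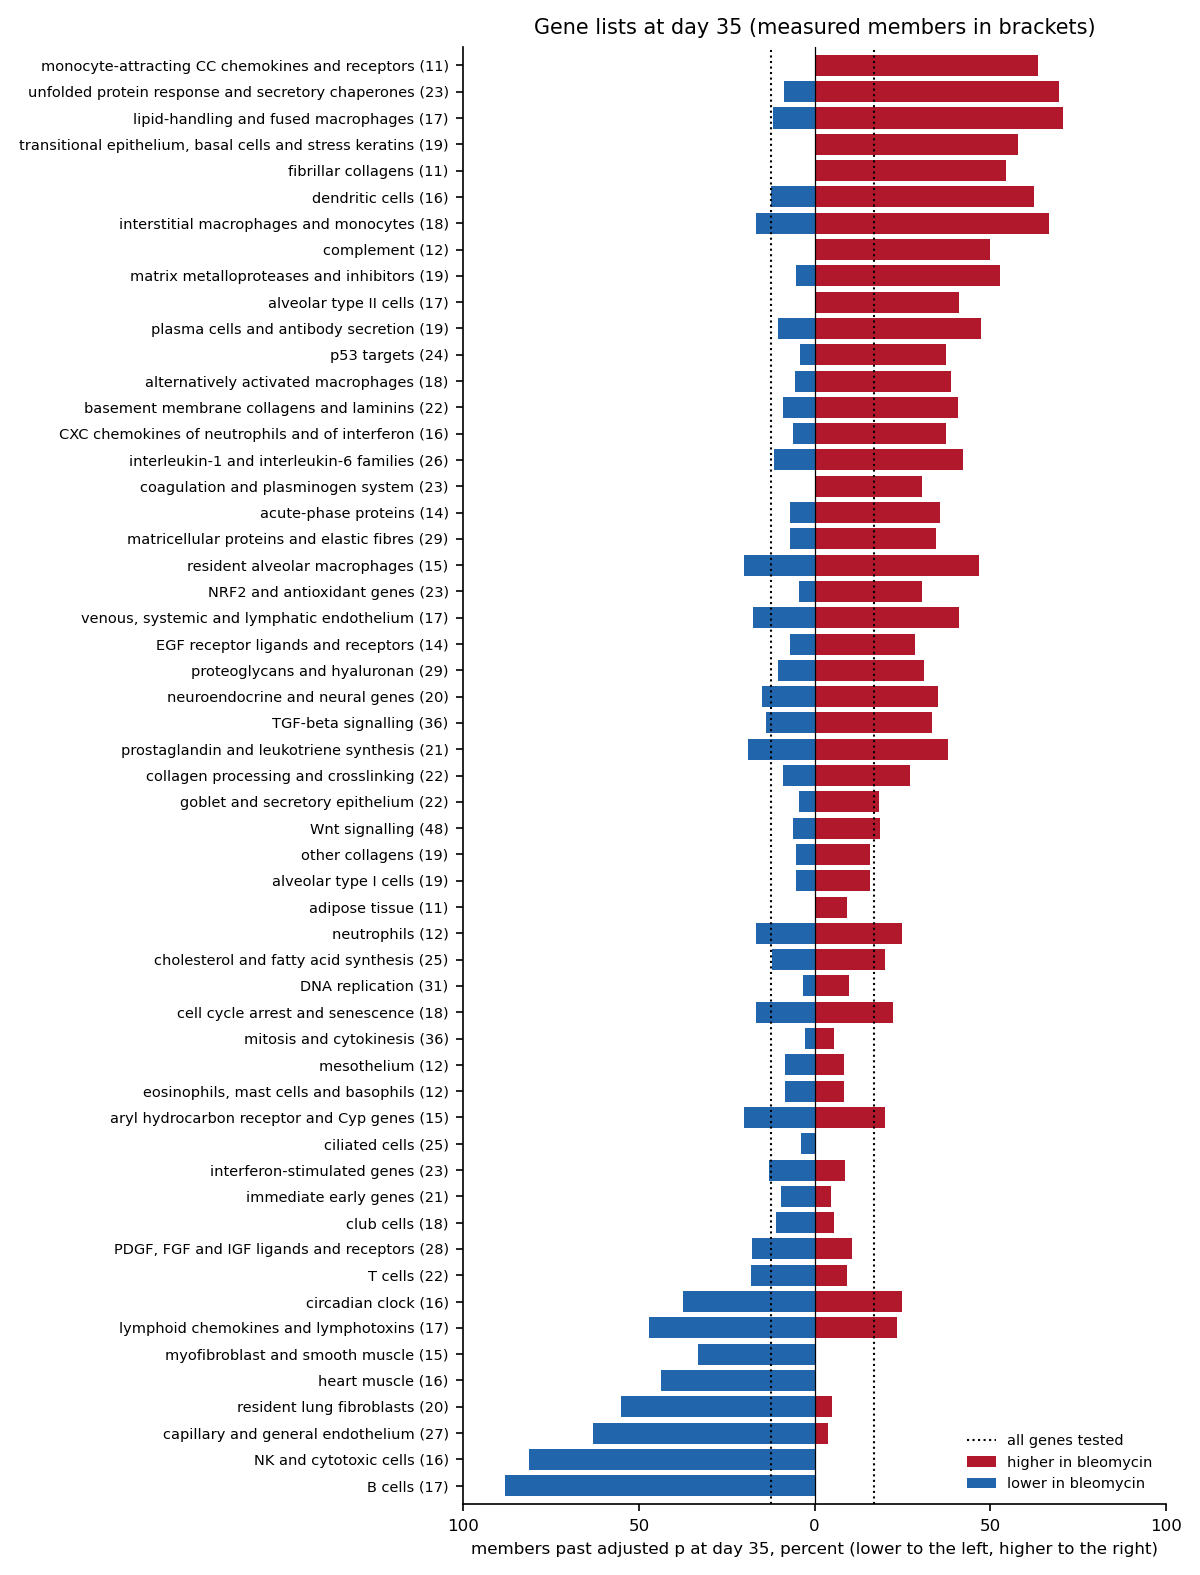
Share of the measured members of each gene list that were higher (right, red) or lower (left, blue) in bleomycin mice at day 35 at an adjusted p under 0.05, for lists with at least 11 members. Dotted lines give the shares over all genes, 16.9% higher and 12.5% lower, and B cells with 15 of 17 lower and lipid-handling macrophages with 12 of 17 higher lie far outside them.

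Several antibody transcripts were higher, while most genes of B cells and of natural killer cells were lower. Of 19 genes of plasma cells and antibody secretion, 9 were higher and 2 lower. Igha, the heavy chain of immunoglobulin A, was at 11.38, 12.91 and 13.48 in bleomycin mice (lowest, median and highest of 8), against 9.29, 10.03 and 10.36 in saline mice. Every bleomycin mouse lay above every saline mouse, a 6.53-fold difference (log2 fold change 2.71, standard error 0.41, adjusted p 2.3e-07). Jchain, which joins the antibodies that are secreted as polymers, was at 10.27, 12.26 and 13.17 in bleomycin mice, against 8.77, 9.35 and 10.18 in saline mice, again without overlap (2.53, standard error 0.43, adjusted p 2.4e-06). Ighm, the heavy chain of immunoglobulin M, was uneven, at 6.70, 9.85 and 13.85 in bleomycin mice and 6.87, 7.34 and 8.10 in saline mice. Bleomycin mice 7, 4 and 2 were high, and bleomycin mouse 8 was below every saline mouse. The difference of 2.80 (standard error 0.91, adjusted p 0.013) was 2.27 without bleomycin mouse 7 and did not pass (adjusted p 0.056). Immunoglobulin genes have near-identical copies, and a probeset may read several of them. Pou2af1, a coactivator of immunoglobulin transcription, was 1 of the 2 lower genes of the list, at -0.59 (standard error 0.18, adjusted p 0.008), and did not pass against the saline mice of all days (-0.35, adjusted p 0.051).

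Of 17 B cell genes 15 were lower and none higher, with a median log2 fold change of -0.72. Cr2, the complement receptor of mature B cells, was at 7.24, 7.73 and 8.46 in bleomycin mice and at 8.17, 8.82 and 9.23 in saline mice, and the ranges met only through saline mouse 8. The difference was -0.94 (standard error 0.20, adjusted p 0.00017). Fcmr, the receptor for immunoglobulin M, fell by 1.06 (standard error 0.22, adjusted p 7.5e-05), and Blk, a kinase of the B cell receptor, fell by 1.06 (standard error 0.20, adjusted p 2.5e-05). The chemokine receptors of B cell follicles and lymph nodes fell too, Cxcr5 by 0.81 and Ccr7 by 0.73 (adjusted p 0.00016 and 0.00013). Averaged over the B cell list and set against the saline mean, bleomycin mice lay between -1.24 (mouse 3) and -0.19 (mouse 2), and saline mice between -0.34 and 0.33.

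Of 16 genes of natural killer and cytotoxic cells 13 were lower and none higher, and 8 had groups that did not overlap. S1pr5, the sphingosine phosphate receptor by which natural killer cells leave tissues, was at 6.36, 7.39 and 7.62 in bleomycin mice and 8.06, 8.21 and 8.84 in saline mice. The difference was -1.02 (standard error 0.17, adjusted p 2.4e-06). The granule protease Gzma fell by 0.99 (standard error 0.16, adjusted p 1.3e-06), and Klre1 and Nkg7, a receptor and a granule protein of these cells, fell by 0.84 and 0.83 (adjusted p 3.1e-06 and 2.3e-06). The mean of the list was -1.02 to -0.24 in bleomycin mice and -0.15 to 0.30 in saline mice, so that no bleomycin mouse reached the saline range. T cell genes were close to the background, with 2 of 22 higher and 4 lower, or none higher and 3 lower without bleomycin mouse 3, and Cd8a, the coreceptor of cytotoxic T cells, fell by 0.71 and Themis, a regulator of T cell selection, by 0.57 (adjusted p 0.007 and 0.0077). Among chemokines of lymphoid tissue, Cxcl12, a stromal chemokine, had a log2 fold change of 0.68 with groups that did not overlap (adjusted p 0.0009), Ccl20, an epithelial chemokine that attracts B cells and dendritic cells, had 0.92 (adjusted p 0.0088), and Ccl5, made by cytotoxic cells, had -0.78 without overlap (adjusted p 3.2e-05).

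**Figure D2:**
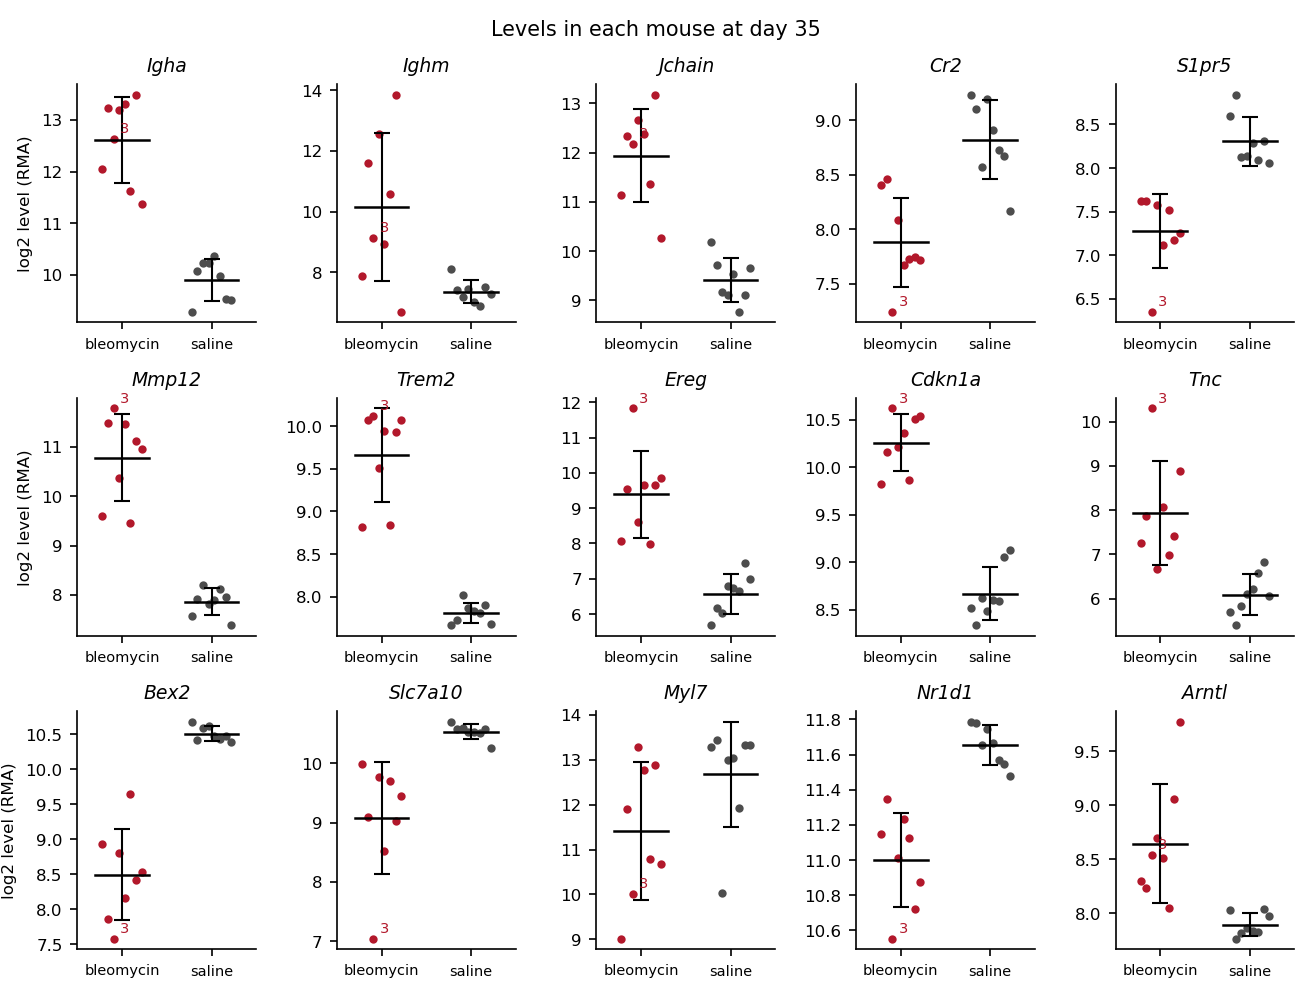
Log2 levels of 15 genes in each mouse at day 35, bleomycin mice on the left of each panel and saline mice on the right, with the mean and standard deviation in black and bleomycin mouse 3 numbered. Igha, Mmp12 and Cdkn1a show no overlap, Ighm runs between 6.70 and 13.85 in bleomycin mice, and Myl7 falls to 10.04 in saline mouse 3.

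Most genes of the unfolded protein response, which includes the chaperones that fold secreted proteins, were higher. When unfolded protein accumulates in the endoplasmic reticulum, the sensors ATF6 and IRE1 lead to transcription factors that bind the endoplasmic reticulum stress response element, a CCAAT box and a CCACG box held 9 bases apart. Of 23 genes of this response 16 were higher, 2 were lower and 5 did not pass, with a median log2 fold change of 0.27. Their mean was 0.145 to 0.427 above the saline mean in bleomycin mice, whereas saline mice lay between -0.076 and 0.105. Without bleomycin mouse 3, 14 were higher and 1 lower. Sdf2l1, a partner of the chaperone BiP, was at 9.48, 9.99 and 10.36 in bleomycin mice and at 8.67, 8.98 and 9.21 in saline mice. No values overlapped, and the difference was 0.99 (standard error 0.14, adjusted p 5.5e-08). Pdia4, a disulfide isomerase, had 0.68 (standard error 0.12, adjusted p 8.5e-06), Edem1, which hands misfolded glycoproteins to degradation, 0.57 (standard error 0.12, adjusted p 0.00011), and Hyou1, a large chaperone of the same compartment, 0.50 (standard error 0.09, adjusted p 2.2e-05).

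The letters CCAAT and CCACG with any 9 bases between them were looked for on both strands of RefSeq promoters (build GRCm38.p6, 250 bases before to 50 bases after each start). They occurred in 39 of 32851 promoters, or 37 of 27025 genes (0.137%), and of the 20 list members with a promoter in the table in 7. The sites of the 5 genes with the largest changes among these are shown with 20 bases on each side, the element in capitals and written 5′ to 3′ along the gene, and they were chosen after the values were seen. The element of Creld2 and the second of Hsp90b1 lie on the opposite strand and so read CGTGG first. A match of letters is a description of the sequence, not evidence of binding.
Creld2, chr15:88819500-88819558, plus strand: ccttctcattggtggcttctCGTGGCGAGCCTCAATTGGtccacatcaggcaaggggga
Canx, chr11:50325780-50325838, minus strand: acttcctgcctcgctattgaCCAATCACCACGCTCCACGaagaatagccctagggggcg
Pdia6, chr12:17266471-17266529, plus strand: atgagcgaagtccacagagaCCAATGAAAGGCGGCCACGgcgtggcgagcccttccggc
Hspa5, chr2:34772005-34772063, plus strand: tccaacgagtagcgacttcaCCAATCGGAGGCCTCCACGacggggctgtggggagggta
Hsp90b1, chr10:86705618-86705676, minus strand: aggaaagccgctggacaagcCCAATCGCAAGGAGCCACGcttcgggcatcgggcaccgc
Hsp90b1, chr10:86705513-86705571, minus strand: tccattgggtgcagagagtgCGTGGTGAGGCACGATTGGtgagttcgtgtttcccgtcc

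Of the 7 genes with the element 6 were higher at day 35, where 16 of the 23 genes of the whole list and 16.9% of all genes were. The response of genes with the element outside the list was not examined. Creld2, a disulfide isomerase, was at 11.19, 11.42 and 11.86 in bleomycin mice against 10.92, 10.98 and 11.25 in saline mice, and only saline mouse 8 reached the bleomycin range. The difference was 0.48 (standard error 0.08, adjusted p 1.2e-06). Canx, the lectin chaperone calnexin, had 0.39 (standard error 0.07, adjusted p 1e-05), Pdia6, a disulfide isomerase, 0.37 (standard error 0.10, adjusted p 0.0028), Hspa5, which is BiP, 0.33 (standard error 0.05, adjusted p 8.4e-08), and Hsp90b1, the HSP90 of the endoplasmic reticulum, 0.32 (standard error 0.06, adjusted p 5.2e-06). Dnajc3, a cochaperone of BiP, had 0.21 (standard error 0.08, adjusted p 0.042), which did not pass when any of 9 single mice was left out (lowest 0.19, adjusted p 0.092), and Syvn1, a ubiquitin ligase of the same compartment, had 0.09 (standard error 0.05, adjusted p 0.2). Of the 6 higher genes, Canx did not pass with its brightest probeset (0.06, adjusted p 0.12), and Pdia6 and Hsp90b1 did not pass against the saline mice of all days (0.15 and 0.12, adjusted p 0.18 and 0.15). Set against the saline mice of the other days, those of day 35 were lower in Pdia6 by 0.26 and in Hsp90b1 by 0.24 (adjusted p 0.022 and 0.00013). Antibody transcripts were also higher in bleomycin mice, and the 2 lists share Creld2 and Xbp1. The means of the plasma cell and unfolded protein response lists were 0.225 and 0.200 in bleomycin mouse 1 and 0.287 and 0.199 in mouse 6. They were 0.356 and 0.234 in mouse 3, 0.710 and 0.272 in mouse 4 and 0.456 and 0.376 in mouse 5. Bleomycin mouse 8 had a plasma cell list mean of -0.015, inside the saline range of -0.152 to 0.129, with an unfolded protein response mean of 0.396. Bleomycin mouse 2 had 0.646 for plasma cells with the lowest unfolded protein response mean of its group, 0.145, and bleomycin mouse 7 had the highest of both, 0.999 and 0.427. The part of plasma cells in the response of these genes was not tested.

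Macrophage genes were prominent among the higher genes. Of 17 genes of lipid-handling and fused macrophages 12 were higher and 2 lower (median 0.61), of 18 genes of interstitial macrophages and monocytes 12 were higher and 3 lower (median 0.71), and of 15 genes of resident alveolar macrophages 7 were higher and 3 lower. Mmp12, the macrophage elastase, was at 9.45, 11.03 and 11.77 in bleomycin mice, against 7.39, 7.91 and 8.21 in saline mice. This 7.49-fold difference (log2 fold change 2.91, standard error 0.31, adjusted p 2.8e-11) was the largest of all genes at day 35. Trem2, a lipid receptor of macrophages, was at 8.82, 9.94 and 10.12 in bleomycin mice and at 7.67, 7.82 and 8.02 in saline mice (1.85, standard error 0.23, adjusted p 2.9e-09). Bleomycin mice 1 and 6 had the lowest levels of both genes and still lay above all saline mice. Gpnmb, a glycoprotein of foamy macrophages, had 1.48, and Msr1, a scavenger receptor, 1.49 (adjusted p 2.9e-07 and 9.5e-06).

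Genes of mature alveolar macrophages moved both ways. Ctsk, the collagen-degrading cathepsin K, was at 10.26, 11.17 and 11.79 in bleomycin mice and at 9.43, 9.58 and 9.80 in saline mice (1.42, standard error 0.18, adjusted p 3.3e-09). Olr1, a receptor for oxidized lipoprotein, had 1.42, Plet1, a surface glycoprotein, 1.27, and Atp6v0d2, a subunit of the proton pump that also serves cell fusion, 1.21, all without overlap (adjusted p 1.2e-05, 3.5e-09 and 2.1e-06). Ctsk and Atp6v0d2 are also members of the list of lipid-handling and fused macrophages. In contrast Fabp1, a fatty acid binding protein, was at 7.88, 9.0 and 10.46 in bleomycin mice and at 10.39, 10.54 and 11.04 in saline mice. Only bleomycin mouse 6 reached the saline range. Fabp1 differed by -1.69 (standard error 0.44, adjusted p 0.002), and Krt79, a keratin that alveolar macrophages of the mouse express, had -1.13 (standard error 0.28, adjusted p 0.00085). Of the interstitial genes, Ms4a7, C3ar1, the receptor for the complement fragment C3a, Fcgr1, the high-affinity receptor for immunoglobulin G, and C1qb, a chain of C1q, had 1.74, 1.64, 1.27 and 1.26, each without overlap (adjusted p at most 7.1e-06). Lyve1, which marks macrophages along vessels as well as lymphatic endothelium, fell by 0.42 (adjusted p 0.0065).

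The chemokines that draw in monocytes were higher in 7 of 11 cases and lower in none, with a median of 0.94. Ccl12 was at 9.05, 9.76 and 10.95 in bleomycin mice and at 5.98, 7.92 and 8.56 in saline mice (2.16, standard error 0.38, adjusted p 6.1e-06), Ccl8, another chemokine of this family, had 1.10 (standard error 0.29, adjusted p 0.002), and the receptor Ccr1 had 1.41 (standard error 0.27, adjusted p 2.1e-05). Clec4n, the lectin dectin-2 of myeloid cells, was at 10.05 or above in all bleomycin mice and at 8.92 or below in all saline mice (2.11, standard error 0.27, adjusted p 4.2e-09). Ccl17, a chemokine of dendritic cells, had 1.07 (adjusted p 9.4e-05), and 10 of 16 dendritic cell genes were higher and 2 lower. Cxcl9, an interferon-induced chemokine for T cells, had 1.53 and Cxcl5, which attracts neutrophils, 1.25 (adjusted p 0.0095 and 0.0028). Il1rn, the antagonist of the interleukin-1 receptor, had 1.48 (adjusted p 5.8e-05), and Saa3, an acute-phase protein, 2.06 (adjusted p 0.0011), with bleomycin mice 1 and 6 at 8.98 and 9.82, inside the saline range of 8.86 to 9.94.

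Of 19 genes of transitional epithelium, basal cells and stress keratins 11 were higher and none lower (median 0.48). Ereg is a ligand of the EGF receptor, and of the 14 ligands and receptors of that family 4 were higher and 1 lower (median 0.05). It was at 7.98, 9.59 and 11.83 in bleomycin mice and at 5.69, 6.68 and 7.45 in saline mice (2.83, standard error 0.43, adjusted p 3.1e-07). Sprr1a, an envelope protein of stressed epithelium, was at 7.43, 8.33 and 9.82 in bleomycin mice and at 6.52, 6.68 and 6.99 in saline mice (1.78, standard error 0.36, adjusted p 6.1e-05), and Krt14, a basal cell keratin, had 0.69 (standard error 0.17, adjusted p 0.0011). The groups did not overlap for any of these 3 genes, and the highest level was in bleomycin mouse 3 for Ereg and Krt14 and in bleomycin mouse 8 for Sprr1a. In the goblet and secretory epithelium list 4 of 22 genes were higher and 1 lower, and its member Slc26a4, the anion exchanger pendrin, was at 9.44, 10.53 and 11.72 in bleomycin mice and at 7.38, 7.84 and 8.35 in saline mice (2.61, standard error 0.34, adjusted p 7.2e-09). Fxyd4, a regulator of the sodium pump, and Stra6l, which is related to a retinol transporter, belong to no list and were named for the size of their change, 1.95 and 2.09, both without overlap (adjusted p 2e-08 and 9.7e-10).

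Of 24 genes that p53 induces after DNA damage 9 were still higher, 1 was lower and 14 did not pass. The mean of the list separated the groups, at 0.153 to 0.393 above the saline mean in bleomycin mice and at -0.045 to 0.055 in saline mice. Cdkn1a, the cell cycle inhibitor p21, was at 9.82, 10.29 and 10.62 in bleomycin mice and at 8.34, 8.60 and 9.13 in saline mice (1.59, standard error 0.24, adjusted p 2e-07). Eda2r, a death receptor of the TNF receptor family, was at 8.85, 9.39 and 10.09 in bleomycin mice and at 7.55, 8.07 and 8.50 in saline mice (1.36, standard error 0.23, adjusted p 1.9e-06). Ccng1, cyclin G1, had 0.89, and Phlda3, an inhibitor of Akt, 0.62 (adjusted p 9.2e-05 and 5.2e-05), again without overlap. Psrc1, which binds microtubules and is not in this list, had 2.28 (adjusted p 2e-08), also without overlap. Leaving out bleomycin mouse 3 left 9 of the 24 higher and 1 lower.

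Alveolar type II genes were higher in 7 of 17 cases and lower in none, by small amounts, of which Rab27a, a regulator of secretion, had 0.42 (adjusted p 7.9e-05). Of 19 alveolar type I genes 3 were higher and 1 lower, and Cldn18, a tight junction protein of the alveolus, had 0.42 without overlap (adjusted p 0.00047). Of 25 genes of ciliated cells none was higher and 1 lower, and of 18 club cell genes 1 was higher and 2 lower.

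**Figure D3:**
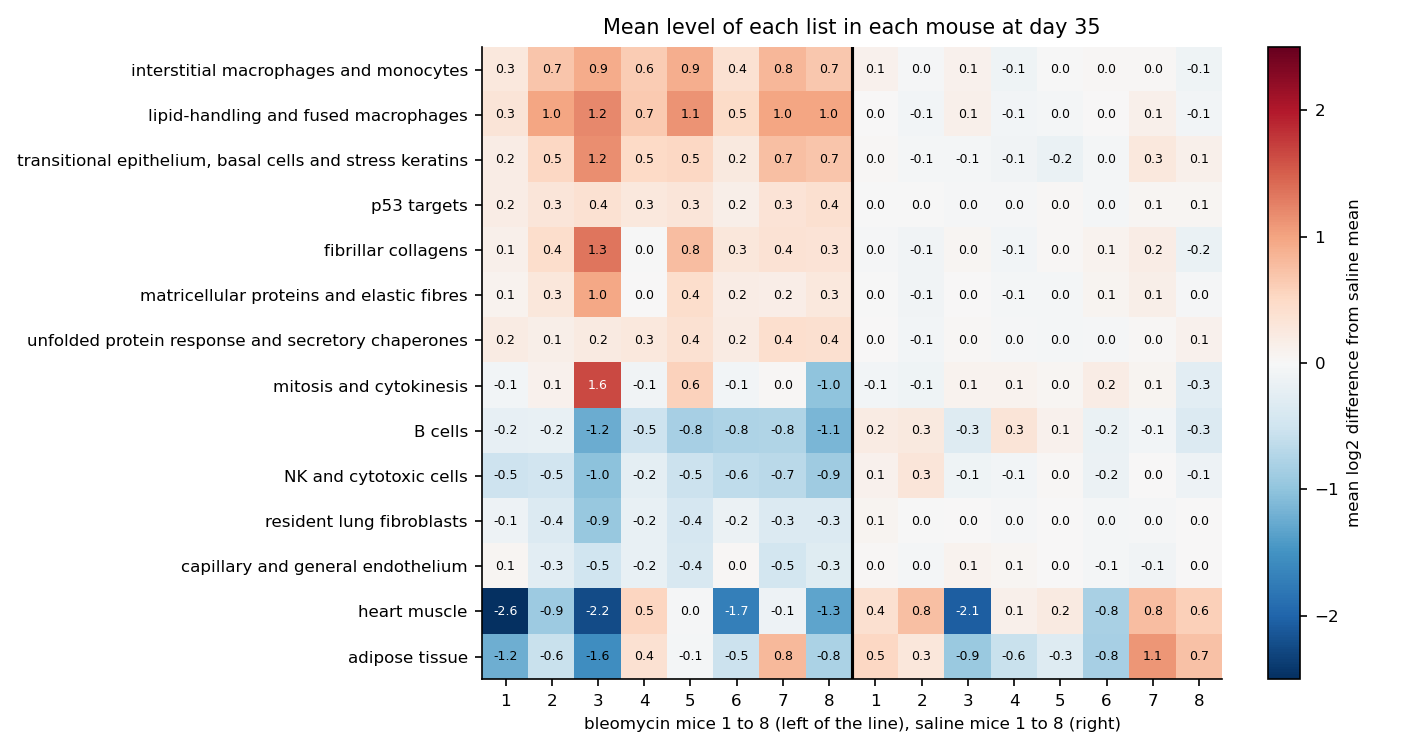
Mean log2 level of 14 gene lists in each mouse at day 35, relative to the mean of the saline mice (colour and printed values), with bleomycin mice 1 to 8 left of the line and saline mice 1 to 8 right of it. Bleomycin mouse 3 has the highest fibrillar collagen and mitosis means (1.34 and 1.645), and saline mouse 3 has a low heart muscle mean (-2.06), as have bleomycin mice 1, 3 and 6.

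Of 11 fibrillar collagen genes 6 were higher and none lower (median 0.45), and 4 were higher without bleomycin mouse 3. Of 22 genes of basement membrane collagens and laminins 9 were higher and 2 lower, and of 19 other collagen genes 3 were higher and 1 lower. The mean of the fibrillar list differed among mice, and was 1.34 above saline in bleomycin mouse 3, 0.78 in mouse 5 and at most 0.43 in the others, of which mouse 4 was at -0.01. Col24a1, a minor fibrillar collagen, was at 5.71, 6.30 and 8.50 in bleomycin mice and at 4.64, 4.81 and 6.08 in saline mice (1.6, standard error 0.25, adjusted p 4.8e-07). The ranges met through saline mouse 5 alone. Col3a1 had 0.63 (standard error 0.18, adjusted p 0.0047) and Col5a2 0.59 (standard error 0.16, adjusted p 0.0022), the Col5a2 call being lost when only the arrays of day 35 were fitted (adjusted p 0.053). Col1a1, the chain of the main scar collagen, was chosen for its role, after its values were seen. It was at 12.40, 12.56 and 13.40 in bleomycin mice and at 12.15, 12.28 and 12.59 in saline mice, with 0.38 (standard error 0.12, adjusted p 0.013), with 0.28 (adjusted p 0.082) without bleomycin mouse 3 and with 0.22 (adjusted p 0.067) against the saline mice of all days.

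Of 29 matricellular and elastic fibre genes 10 were higher and 2 lower. Tnc, tenascin C of provisional matrix, was at 6.67, 7.65 and 10.30 in bleomycin mice and at 5.4, 6.08 and 6.83 in saline mice (1.85, standard error 0.36, adjusted p 2.8e-05). Of these mice only bleomycin mouse 4 fell within the saline range. Thbs4, a thrombospondin, had 1.32 (standard error 0.28, adjusted p 0.00011), Cilp, a matrix protein that binds growth factors, 1.2 (standard error 0.24, adjusted p 6.7e-05), and Fn1, fibronectin, 0.83 (standard error 0.17, adjusted p 7.9e-05). Bleomycin mouse 3 was the highest for each of these, and without it they had 1.51, 0.95, 0.97 and 0.65. All 4 still passed the adjusted p, but Thbs4 and Cilp were then no longer over 2-fold. Dmp1, a phosphoprotein of mineralized matrix, and Chl1, an adhesion molecule, had 2.41 and 2.34 (adjusted p 0.00016 and 0.00031). Cemip, which degrades hyaluronan, had 1.24 (adjusted p 0.0072), but 0.04 with its brightest probeset (adjusted p 0.65), and of the 29 genes of proteoglycans and hyaluronan 9 were higher and 3 lower.

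Of the proteins that process collagen, 6 of 22 genes were higher and 2 lower. P4ha3, a prolyl hydroxylase, had 1.07 (standard error 0.18, adjusted p 3.8e-06) and Serpinh1, the collagen chaperone of the endoplasmic reticulum, 0.49 (standard error 0.08, adjusted p 8.3e-07). The lysyl oxidase Loxl1, which crosslinks elastin and collagen, had 0.36 (standard error 0.12, adjusted p 0.018) and did not pass without bleomycin mouse 3 (0.28, adjusted p 0.086) or against the saline mice of all days (0.09, adjusted p 0.57). Loxl3 and Loxl4 had 0.18 and 0.14 (adjusted p 0.094 and 0.21). Of 19 matrix metalloproteases and inhibitors 10 were higher and 1 lower, among them Mmp19 with 0.94 and no overlap (standard error 0.18, adjusted p 2.2e-05) and Timp1, an inhibitor of these enzymes, with 1.24 (standard error 0.36, adjusted p 0.005).

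Of 36 genes of TGFβ signalling 12 were higher and 5 lower. The receptor genes Tgfbr1 and Tgfbr2 had 0.62 and 0.28 (adjusted p 0.0017 and 0.0012), Ltbp2, which binds the latent complex in the matrix, 0.58 without overlap (adjusted p 1.2e-05), and Itgb6, the integrin chain that activates latent TGFβ, 0.57 (adjusted p 0.0055). Eng, the endothelial coreceptor endoglin, fell by 0.54 (adjusted p 0.00047). Of the Smad genes, which carry the signal to the nucleus or block it, Smad1 had 0.20 (adjusted p 0.002), and Smad2, Smad3, Smad6 and Smad7 had -0.08, 0.04, -0.30 and -0.02 (adjusted p 0.22 to 0.87). The directions of Smad1 and Smad2 depended on the probeset, since the brightest probesets gave -0.01 and 0.27 (adjusted p 0.89 and 7.6e-07). In the Wnt list 9 of 48 genes were higher and 3 lower (median 0.0), where 16.9% of all genes were higher and 12.5% lower. Of its members, Sfrp1, a secreted Wnt antagonist, had 1.37 and Wnt2, a ligand of lung fibroblasts, -0.91, both without overlap (adjusted p 1.9e-06 and 1.1e-07). Of 28 ligands and receptors of the PDGF, FGF and IGF families 3 were higher and 5 lower (median -0.03), against the same shares of all genes. Igf1, a growth factor that macrophages and fibroblasts make, had 1.02 (adjusted p 3.6e-05), and Fgfr4 and Igfbp3, given below, were among the 5 lower.

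Of 20 genes of resident lung fibroblasts 11 were lower and 1 higher (median -0.27), 8 lower and 1 higher without bleomycin mouse 3, and their mean was -0.94 to -0.12 in bleomycin mice and -0.04 to 0.06 in saline mice. Slc7a10, an amino acid transporter, was at 7.05, 9.27 and 9.98 in bleomycin mice and at 10.25, 10.55 and 10.70 in saline mice (-1.46, standard error 0.23, adjusted p 7.2e-07). Scube2, a secreted carrier of hedgehog ligands, was at 8.97, 9.98 and 10.46 in bleomycin mice and at 10.91, 11.04 and 11.12 in saline mice (-1.06, standard error 0.15, adjusted p 3.1e-08), and Fgfr4, a fibroblast growth factor receptor, had -0.76 (standard error 0.15, adjusted p 7.7e-05). In none of these 3 genes did the groups overlap, and bleomycin mouse 3 was the lowest. Of 15 smooth muscle and myofibroblast genes 5 were lower and none higher, with Synpo2, an actin-binding protein, at -0.83 without overlap (standard error 0.21, adjusted p 0.0014).

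Of 27 genes of capillary and general endothelium 17 were lower and 1 higher (median -0.29), but in none did the groups separate. Ednrb, the endothelin receptor of aerocytes, was at 8.13, 8.89 and 9.77 in bleomycin mice and at 9.48, 9.94 and 10.12 in saline mice (-0.93, standard error 0.18, adjusted p 1.9e-05), and Kdr, the main VEGF receptor, was at 11.32, 11.66 and 12.08 in bleomycin mice and at 11.98, 12.09 and 12.21 in saline mice (-0.44, standard error 0.09, adjusted p 8.6e-05). Of the bleomycin mice, mouse 1 lay within the saline range for both genes and mouse 6 for Ednrb. Bleomycin mice 1 and 6 had list means of 0.05 and 0.03, inside the saline range of -0.09 to 0.10. Genes of venous, systemic and lymphatic endothelium went the other way in 7 of 17 cases, with 3 lower. Prox1, the transcription factor of lymphatic vessels, had 0.73 without overlap (standard error 0.14, adjusted p 3e-05), Mmrn1, multimerin of lymphatic vessels, 0.68 (standard error 0.09, adjusted p 4.6e-09), and Ackr1, the chemokine scavenger of venules, 0.94 (standard error 0.26, adjusted p 0.0037). Lyve1, the gene of lymphatic endothelium and macrophages named above, is in this list and was 1 of the 3 lower. Without bleomycin mouse 3, 4 of the 17 were higher and 3 lower. Over all genes, with all mice, 16.9% were higher and 12.5% lower.

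No list of platelet genes was fixed, and the following genes were named for the size of their change or through other lists. Tubb1, the tubulin of platelets, was at 8.46, 9.42 and 10.30 in bleomycin mice and at 10.08, 10.79 and 11.41 in saline mice (-1.35, standard error 0.21, adjusted p 4.6e-07), and Ppbp, the precursor of platelet basic protein, at 9.19, 9.68 and 10.63 in bleomycin mice and at 10.54, 11.06 and 11.88 in saline mice (-1.33, standard error 0.20, adjusted p 2.5e-07). For both genes only bleomycin mouse 1 lay within the saline range. In the CXC chemokine list that holds Ppbp, 6 of 16 genes were higher and Ppbp alone was lower. Pf4, platelet factor 4, is in that list too and so was not lower. Alox12, the lipoxygenase of platelets, had -0.90 without overlap (standard error 0.14, adjusted p 2.4e-07), in a list of prostaglandin and leukotriene synthesis in which 8 of 21 genes were higher and 4 lower. Slc4a1, the anion exchanger of red cells, had -1.64 (standard error 0.41, adjusted p 0.0012), and it was the 1 gene of 6 of the red cell list that passed.

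Bex2, a small protein best known from neurons, had the largest decrease, at 7.58, 8.47 and 9.64 in bleomycin mice and at 10.39, 10.48 and 10.68 in saline mice (-2.02, standard error 0.24, adjusted p 9.7e-10). The saline mice were close together, and no bleomycin mouse reached them. In the list of neuroendocrine and neural genes, which holds Bex2 and Bex1, 7 of 20 were higher and 3 lower (median 0.13), and Bex1 had -0.90 (adjusted p 3.2e-07). The membrane protein Tmem132d had -1.58 without overlap (adjusted p 1.7e-06), Htr2c, a serotonin receptor, -1.41 (adjusted p 0.00023), and Paqr9, a receptor of the progestin and adiponectin receptor family, -1.94 (adjusted p 0.00032). The call of Paqr9 was lost with its brightest probeset (-0.73, adjusted p 0.12).

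Of 16 genes of heart muscle 7 were lower and none higher (median -1.09), but without bleomycin mouse 3 only 2 were lower. Myl7, the light chain of atrial myosin, was at 9.02, 11.35 and 13.28 in bleomycin mice and at 10.04, 13.16 and 13.44 in saline mice, and saline mouse 3 lay far below the other saline mice. The difference of -1.26 (standard error 0.45, adjusted p 0.027) was lost when bleomycin mouse 1, 3 or 8 or saline mouse 1, 2, 7 or 8 was left out (-0.91 to -1.17, adjusted p 0.05 to 0.12). Myl3, a ventricular myosin light chain, had -1.48 (adjusted p 0.017) and failed without bleomycin mouse 1 or 3 (-1.21 and -1.30, adjusted p 0.059 and 0.051), and Kcnj3, an atrial potassium channel, had -1.85 (adjusted p 0.025) and failed without bleomycin mouse 1, 3 or 6 or saline mouse 2 or 7 (-1.40 to -1.67, adjusted p up to 0.1). All 3 also failed when only the arrays of day 35 were fitted (adjusted p 0.15, 0.084 and 0.14) and with array weights (-0.83, -1.03 and -1.23, adjusted p 0.14, 0.094 and 0.13). The mean of the heart list ran between -2.56 and 0.53 in bleomycin mice and between -2.06 and 0.77 in saline mice, and that of 11 adipose genes, of which 1 was higher and none lower, between -1.55 and 0.81 in bleomycin mice and between -0.92 and 1.09 in saline mice. The source of these transcripts was not tested.

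Genes of the circadian clock moved apart. The activator arm, Arntl (BMAL1) and Npas2, drives the transcription of Per1, Nr1d1 (REV-ERBα), Dbp and Hlf, and Nr1d1 in turn represses Arntl, Npas2 and Nfil3. Of 16 clock genes 4 were higher and 6 lower. Nr1d1 was at 10.55, 11.07 and 11.35 in bleomycin mice and at 11.48, 11.66 and 11.79 in saline mice (-0.65, standard error 0.14, adjusted p 0.00027). Dbp, a transcription factor with a strong daily rhythm, was at 10.39, 11.00 and 11.38 in bleomycin mice and at 11.44, 11.65 and 11.84 in saline mice (-0.75, standard error 0.15, adjusted p 7.4e-05), and its relative Hlf had -0.60 (standard error 0.13, adjusted p 0.00027). Arntl was at 8.05, 8.53 and 9.77 in bleomycin mice and at 7.77, 7.85 and 8.04 in saline mice (0.75, standard error 0.17, adjusted p 0.00028), Npas2 had 0.78 (standard error 0.20, adjusted p 0.0015) and Nfil3 0.96 (standard error 0.23, adjusted p 0.00065). The groups overlapped for Npas2 and Nfil3, and not for the other 4. Per1 had -0.46 (adjusted p 0.017), and -0.35 (adjusted p 0.087) without bleomycin mouse 3.

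These clock values rest on the saline mice of the same day. Arntl was 0.66 lower and Hlf 0.38 higher in saline mice of day 35 than in the saline mice of the other days (adjusted p 0.00027 and 0.0098), and against all saline mice Arntl, Npas2, Per1 and Hlf no longer passed (0.18, 0.37, -0.32 and -0.27, adjusted p 0.6, 0.16, 0.08 and 0.14), while Nr1d1, Dbp and Nfil3 did (-0.70, -0.54 and 0.72). The hour at which each mouse was killed was not given in the sources used here, and its part was not tested.

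**Figure D4:**
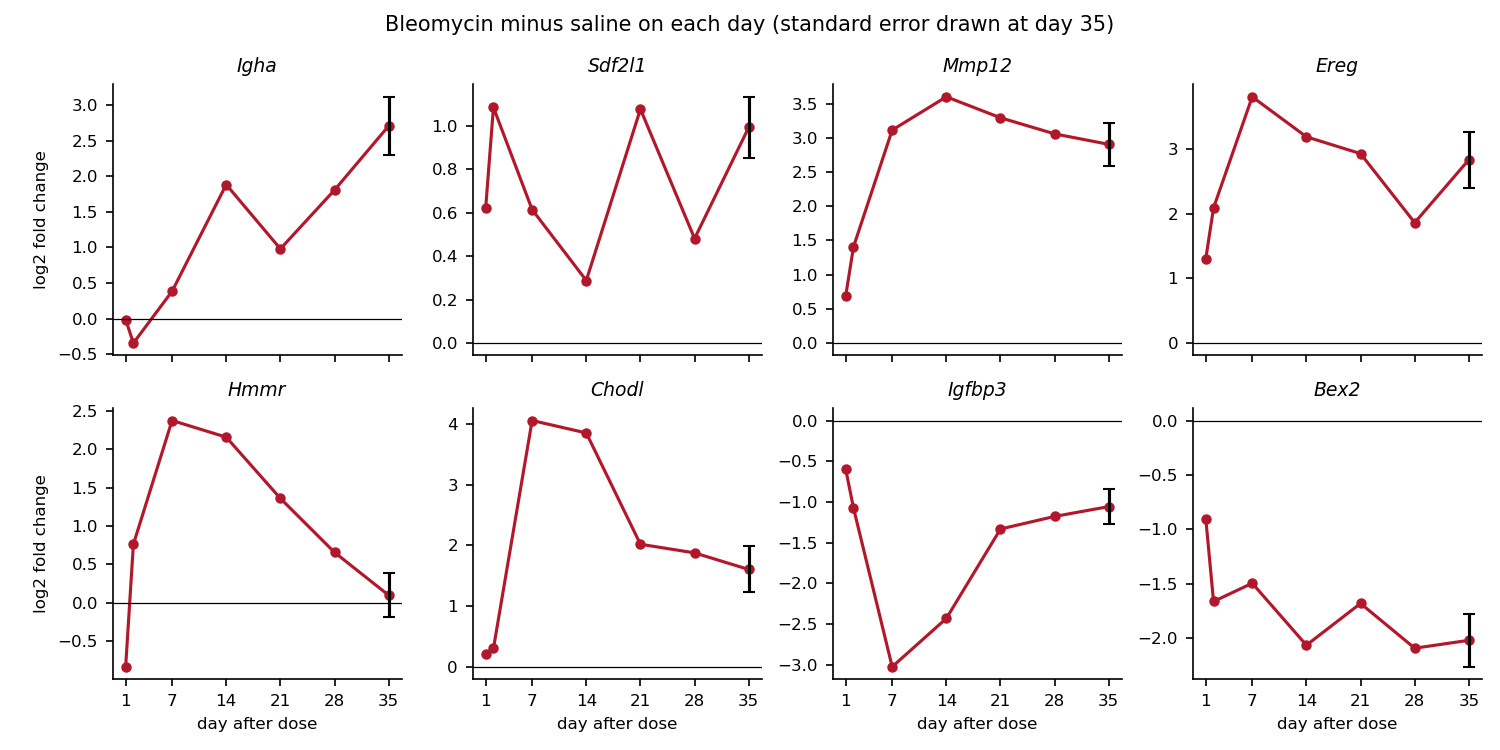
Log2 fold change of bleomycin over saline mice on each of the 7 days for 8 genes, with the standard error drawn at day 35. Igha was at 0.38 at day 7 and 2.71 at day 35, Hmmr at 2.37 and 0.10, Mmp12 at 3.11 and 2.91, and Bex2 at -1.49 and -2.02 on the same days.

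The response of day 35 was next set against that of earlier days, in other mice. Of the 102 genes higher by over 2-fold, 87 were also higher at day 7, when 25.7% of all genes were, 93 at day 14 (21.9%), 96 at day 21 (20.5%) and 90 at day 28 (11.5%). Of the 61 lower genes 26 were also lower at day 7, when 21.9% of all genes were, 42 at day 14 (19.7%), 45 at day 21 (18.9%) and 31 at day 28 (11.8%). The median log2 fold change of the higher genes was 1.72 at day 7, 1.745 at day 14, 1.33 at day 21, 1.22 at day 28 and 1.29 at day 35, and that of the lower genes was -0.72, -1.06, -0.999, -0.70 and -1.16 on the same days. Since the genes were chosen by their size at day 35, their medians on that day are large by choice.

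A test of the difference between the responses of day 35 and day 28 passed for 7 genes (0.0446%). Fbxo32, a ubiquitin ligase of muscle wasting, had log2 fold changes of -0.42 at day 35 and 0.51 at day 28 (difference -0.93, standard error 0.18, adjusted p 0.0038). Trim24 and Cep57, a transcriptional cofactor and a centrosomal protein, had differences of -0.52 and -0.40 (adjusted p 0.039 and 0.038), and Samd1, which binds unmethylated CpG islands, E2f4, a repressor of cell cycle genes, Dvl1, a transducer of Wnt signals, and Usp21, a deubiquitinase, had differences of 0.36, 0.29, 0.25 and 0.24 (adjusted p 0.0034 to 0.014). The number rose to 40 without bleomycin mouse 3 and to 53 without saline mouse 8. Differential expression at day 35 and on no other day was found for 26 genes, 5 higher and 21 lower, of which 25 had the same sign at day 28, 10 passed the adjusted p there in that direction, and the 7 genes above were not among the 26. Fbln7, an adhesion protein of the fibulin family, was among them, at 6.05, 6.58 and 7.60 in bleomycin mice and at 5.08, 5.57 and 5.79 in saline mice (1.23, standard error 0.15, adjusted p 2.9e-09), and so was Nts, the peptide neurotensin (1.2, standard error 0.34, adjusted p 0.0039).

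**Figure D5:**
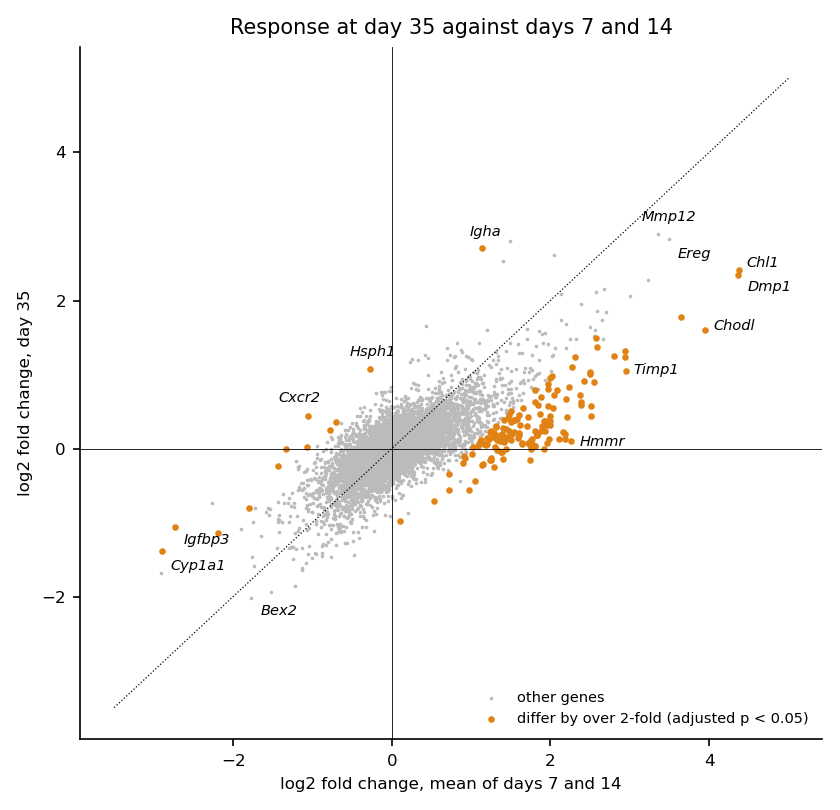
Log2 fold change of each gene at day 35 (vertical axis) against the mean of its log2 fold changes at days 7 and 14 (horizontal axis), with equality as a dotted line. The 164 orange genes differed by over 2-fold, 152 below the line, among them Chodl and Hmmr, and 12 above it, among them Igha and Igfbp3.

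Against the mean response of days 7 and 14, that of day 35 differed by over 2-fold in 164 genes (1.04%), 12 of them higher (0.0764%) and 152 lower (0.968%), and 18 of the 164 were differentially expressed at day 35. Larger and smaller responses are signed here and below, so that a gene less far below saline counts as larger. Of 36 mitosis genes 34 had a smaller response at day 35 than at days 7 and 14, and of 31 genes of DNA replication 27, against 8.74% of all genes, and at day 35 itself 2 of the 36 were higher and 1 lower, or 1 higher and 3 lower without bleomycin mouse 3. Hmmr, a spindle protein, had 0.10 (adjusted p 0.85) at day 35, -2.17 relative to days 7 and 14 (adjusted p 1.7e-06), and Cep55, which acts in abscission, 0.20 (adjusted p 0.62), -1.98 relative to those days (adjusted p 2.6e-06). Their levels at day 35 were spread out, Hmmr at 4.85, 7.26 and 9.86 in bleomycin mice and at 6.86, 7.31 and 7.93 in saline mice. The mean of the mitosis list was 1.645 above saline in bleomycin mouse 3, 0.57 in mouse 5 and -0.997 in mouse 8, where the saline mice spanned -0.27 to 0.18.

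Genes of the matrix had in part smaller responses than earlier. Of the 11 fibrillar collagens 6 and of the 29 matricellular genes 11 had a smaller response than at days 7 and 14. Chodl, a lectin-like membrane protein, was at 5.15, 6.48 and 8.89 in bleomycin mice and at 4.63, 4.97 and 5.50 in saline mice (1.6, adjusted p 0.0006), -2.35 relative to days 7 and 14 (adjusted p 9.4e-05). Timp1 differed by -1.70, Thbs4 by -1.62, Cemip by -1.56 and Sfrp1 by -1.22 (adjusted p 0.0032, 0.00022, 0.011 and 0.00091). In the lipid-handling macrophage list 2 of 17 genes had a smaller response and none a larger one, and Mmp12 had a difference of -0.45 (adjusted p 0.47).

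Other genes were higher at day 35 than the earlier response. The difference was 1.57 for Igha (adjusted p 0.02), 0.73 for Pdia6 (adjusted p 5.5e-06), 0.54 for Sdf2l1 (adjusted p 0.02) and 0.42 for Creld2 (adjusted p 0.0007), and 10 of the 23 genes of the unfolded protein response had a larger response than at days 7 and 14 and 1 a smaller one, where 7.68% of all genes had a larger one. As given above, Pdia6 was lower in the saline mice of day 35 than in those of the other days, and the part of this in its difference was not tested. Hsph1, a cytosolic chaperone of heat shock, was at 10.27, 11.09 and 11.98 in bleomycin mice and at 9.14, 9.60 and 11.94 in saline mice, and its difference was 1.35 (adjusted p 0.0036). Saline mice 7 and 8 lay within the bleomycin range. Of 17 alveolar type II genes 14, and of 18 club cell genes 11, had a log2 fold change above that of days 7 and 14, and none below. The medians of these 2 lists were 0.13 and -0.09 at day 35, -0.14 and -0.19 at day 7 and -0.126 and -0.343 at day 14. Igfbp3, which binds insulin-like growth factors, was at 8.95, 10.21 and 10.78 in bleomycin mice and at 11.14, 11.21 and 11.27 in saline mice. It was still lower at day 35 (-1.06, standard error 0.21, adjusted p 5.5e-05), 1.67 above its response at days 7 and 14 (adjusted p 7.8e-07), and Cyp1a1, a cytochrome of xenobiotic metabolism, was at -1.38 (adjusted p 0.0043), 1.51 above (adjusted p 0.02). Cxcr2, the chemokine receptor of neutrophils, had 0.43 (adjusted p 0.47) at day 35, 1.49 above (adjusted p 0.029), and ranged between 7.05 and 11.06 in bleomycin mice and between 7.56 and 9.29 in saline mice.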

How the data were processed

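RNA of whole lungs from 8 bleomycin and 8 saline mice of day 35, in a series of 14 groups, was analysed. The authors amplified the RNA, hybridized it to Affymetrix mouse arrays and normalized it by RMA, and the deposited values are on a log2 scale (2.746 to 14.69, array medians 8.614 to 8.731), with the genome build of their probe mapping not given in the sources used here. Of 32688 probesets, 314 of several genes and 4503 of no named gene were left out, and the most variable of the others was kept for each of 15707 genes, 7093 of which had more than 1. Names came from the platform annotation and RefSeq.

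All arrays entered 1 linear model with a mean per group (lmFit and eBayes of limma 3.58.1, under R 4.3.3), with p values adjusted by Benjamini-Hochberg over all genes within a contrast (day 35, day 35 minus day 28, day 35 minus the mean of days 7 and 14). Standard errors are those of limma. The number of arrays limits the precision. The script was tested on simulated data.

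Of 1323 entries in 59 gene lists 1146 were measured. The arrays, lists and tests were chosen with earlier results of these data known. Genes are named as the 15 largest increases and 15 largest decreases with every bleomycin mouse on 1 side of the saline mean, up to 4 per list and direction, 6 per difference and direction, the 8 largest found at day 35 alone, and genes the study named, or a part of these. Sftpc and Ager were named as tissue markers, Col1a1 for its role, and Creld2, Canx, Pdia6, Hspa5, Hsp90b1, Dnajc3 and Syvn1 for their promoters, all after their values were seen. Alternatives were the brightest probeset or the mean over probesets, the dimmest 30% of genes left out, arrays rescaled by their quantiles or by their medians, the model without eBayes moderation, only the days compared, all saline mice as control, array weights, the replicate number as a block, and each mouse left out.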

Additional observations from a re-analysis of the deposited data

Results flagged for a closer look

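Among the 143 named genes, each group was searched for a mouse far from the rest of its group (Dixon's criterion), in 286 groups of 8 mice, of which chance alone flags about 1 in 20. The search found 22 such mice, and 10 of them were bleomycin mouse 3. That mouse was the highest for Dmp1 (11.0), Thbs4 (10.28), Fn1 (11.28), Krt14 (7.84) and Smad1 (11.84) and the lowest for Gzma (9.96), S1pr5 (6.36), Fgfr4 (8.1), Per1 (10.32) and Igfbp3 (8.95). Bleomycin mouse 1 was the lowest for Tgfbr1 (6.96) and Smad3 (6.47). Among saline mice, mouse 3 was the lowest for Kcnj3 (5.68) and Myl7 (10.04), mouse 7 the highest for Saa3 (9.94) and Cyp1a1 (11.97) and the lowest for Ager (13.94), mouse 8 the lowest for Slc7a10 (10.25) and Col5a2 (9.55) and the highest for Creld2 (11.25), mouse 5 the highest for Col24a1 (6.08), and mouse 1 the highest for Ccng1 (8.9).

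The response of 16 named genes differed from that of days 7 and 14 by over 2-fold with an adjusted p under 0.05. The response at day 35 minus the earlier one was 1.57 for Igha, 1.35 for Hsph1, 1.67 for Igfbp3, 1.51 for Cyp1a1 and 1.49 for Cxcr2. Of these Igfbp3 and Cyp1a1 were less far below saline, and Cxcr2 did not pass the adjusted p at day 35 itself. The difference was -1.97 for Dmp1, -2.02 for Chl1, -1.17 for Ccl8, -1.62 for Thbs4, -1.56 for Cemip, -1.7 for Timp1, -1.22 for Sfrp1, -1.87 for Sprr1a, -2.17 for Hmmr, -2.35 for Chodl and -1.98 for Cep55. Against day 28 the difference was -0.93 for Fbxo32, 0.24 for Usp21, 0.25 for Dvl1, 0.29 for E2f4, 0.36 for Samd1, -0.52 for Trim24 and -0.4 for Cep57. The causes were not tested.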

How the results depend on the processing

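The number of genes higher by over 2-fold at day 35 was 76 to 103 under the alternatives that keep all mice, and 79 to 130 with single mice left out. The number of lower genes was 33 with array weights, which gave bleomycin mouse 3 the smallest weight of its group (0.379), and 31 to 90 with single mice left out, 31 without bleomycin mouse 3. Genes passing the adjusted p numbered 3913 to 4788 with single mice left out. Genes whose response differed between day 35 and day 28 numbered 14 when only the arrays of those days were fitted, 181 with array weights, and 5 to 53 with single mice left out. Genes differing by over 2-fold from the mean of days 7 and 14 numbered 103 with the dimmest 30% of genes left out, and 147 to 224 with single mice left out. The causes were not tested beyond the mice and genes removed. Smad2 had 0.27 with its brightest probeset and 0.095 with the mean of its probesets, and Smad1 -0.009 with its brightest probeset, opposite to the values reported. Beside the calls whose loss is given with their values, Trim24 (-0.089, adjusted p 0.16) and Dnajc3 (0.067, 0.21) did not pass with the brightest probeset, Loxl1 (0.28, 0.053), Smad1 (0.092, 0.057) and Fbxo32 (-0.252, 0.078) with the mean of the probesets, Dnajc3 after renewed quantile normalization (0.186, 0.1) or median centring (0.215, 0.061), and Hsph1 (1.081, 0.053) and Cyp1a1 (-1.383, 0.059) when only the arrays of day 35 were fitted. Fbxo32 (-0.273, 0.064), E2f4 (0.048, 0.27), Dvl1 (0.047, 0.22) and Usp21 (0.03, 0.56) did not pass against the saline mice of all days. Over the 143 named genes the alternatives that keep all mice left 1377 of their values on the same side of the threshold in the same direction, 32 no longer past it, 1 newly past it and 3 reversed. The results of the gene lists were flagged as moved in 120 cases under these alternatives, and as the same in 1060. Of the moved cases 35 were against the saline mice of all days and 21 with only the days compared. With single mice left out 117 moved, 20 of them without bleomycin mouse 3, and 1771 did not.

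Replicate numbers are shared between groups but nothing in the labels ties mice of 1 number. Deviations of same-numbered mice correlated at -0.015 to 0.408, over 0.1 in 5 of 8 pairs, and 2 of 8 bleomycin mice correlated best with their own number. With the replicate block 103 genes were higher and 73 lower by over 2-fold, 4731 passed the adjusted p, 14 differed from day 28 and 180 from days 7 and 14.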
